A study of Xenopus laevis with 51 samples.

Results

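The eyes of juvenile *Xenopus laevis* frogs were compared 3 weeks after 1 optic nerve had been crushed. The 6 libraries are those whose titles name a crushed optic nerve (ONC) or an unoperated eye (Unop) at 3 weeks in juveniles, and they are 6 of the 51 libraries of the series. ONC eyes came from the crushed side. Contralateral eyes were the unoperated eyes of frogs that carried a crush on the other side, so both groups had been anaesthetised with MS222 and had lived with an injured visual system. All frogs were of an albino strain from 1 supplier, 1 to 3 months past metamorphosis, and their sex was not determined. The nerve was crushed in the orbit, outside the eye, and the whole eye was taken, so that lens, cornea, pigment epithelium, blood and attached muscle were sampled together with the retina. Each library pooled 6 eyes, and the labels call the 3 pools of a group biological replicates. Libraries of 11 days and 3 days after the crush, and of eyes from surgically naive frogs, are used below as further references.

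Retinal ganglion cells are the only neurons of the eye whose axons run in the optic nerve, and crushing the nerve severs those axons while the cell bodies stay in the retina. In frogs the cells survive in good part and grow their axons back to the tectum, the main visual centre of the amphibian midbrain. A neuron that regrows an axon is known to switch on transcription factors of injury, such as ATF3 and JUN, and proteins of the growing tip and of the cytoskeleton, such as GAP43, tubulins and neurofilament proteins. At 3 weeks, by the study's plan, the regrown axons have reached the tectum but have not finished refining their map. The comparison asks which transcripts of the whole eye still differed between the sides at that late time. In RNA of whole eyes, fewer cells of a type and less RNA per cell cannot be told apart.

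Expression was deposited as FPKM (fragments per kilobase of transcript, scaled to the mapped fragments of the library) for 24381 entries, each a gene model with the symbol of its human counterpart. *X. laevis* has a duplicated genome, and many symbols have 2 or more entries. Which entry is which of the paired gene copies (homeologs) is not stated in the entry names. The summed FPKM of a library was 616382 to 730946 in ONC eyes and 678492 to 705489 in contralateral eyes. Crystallins, the proteins of the lens, held 25.1% to 30.5% of the sum in ONC eyes and 31.2% to 31.9% in contralateral eyes. The correlation of log2 values over entries was 0.980 to 0.986 between libraries of 1 group and 0.976 to 0.985 between libraries of the 2 groups, so the sides differed little in bulk. Read numbers cannot be had from FPKM, and the study's design names 30000000 nominal reads for each library.

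The difference between the sides at 3 weeks was almost all in 1 direction. Of 21565 entries tested, 132 (0.612%) were called at an adjusted p of at most 0.05, of which 127 (0.589%) were higher and 5 (0.0232%) lower in ONC eyes. The test was limma on log2(FPKM + 0.5), so each log2 difference below is on that scale, which understates the change of weakly expressed entries. A value after ± is the SE of the log2 difference. Without an adjustment, 2158 entries had a p under 0.05, and these were nearly balanced, with 1125 higher and 1033 lower in ONC eyes. The median over all entries tested was -0.01. In every one of the 132 called entries the ONC libraries lay wholly above or wholly below the contralateral ones, which over all entries tested was so for 7.45% above and 8.92% below. The p-values measure the spread between pools of eyes.

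The 127 higher entries carry 96 distinct symbols, and 3 of them have no symbol. Their median log2 difference was 1.12 and the smallest was 0.47. The rise was at least 4-fold for 13 entries, at least 2-fold for 70 and under 2-fold for 57. Their summed FPKM was 7488, 8028 and 8596 in the ONC libraries, against 3805, 3687 and 3530 in the contralateral libraries. The number of calls depended on single libraries. It was 49 without ONC library 2, with 0 lower, 74 without ONC library 3 and 138 without ONC library 1, and 89, 66 and 85 without contralateral library 1, 2 and 3. In all 6 of these smaller fits 47 of the 132 entries were called, among them entries of GAP43, SST, LEP, ATF3, JUN, STMN2, TUBA1A, PRPH, INA, THY1 and SNCG. No call reversed its direction, but none could in these fits, because the groups of every called entry do not overlap.

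**Figure D1:**
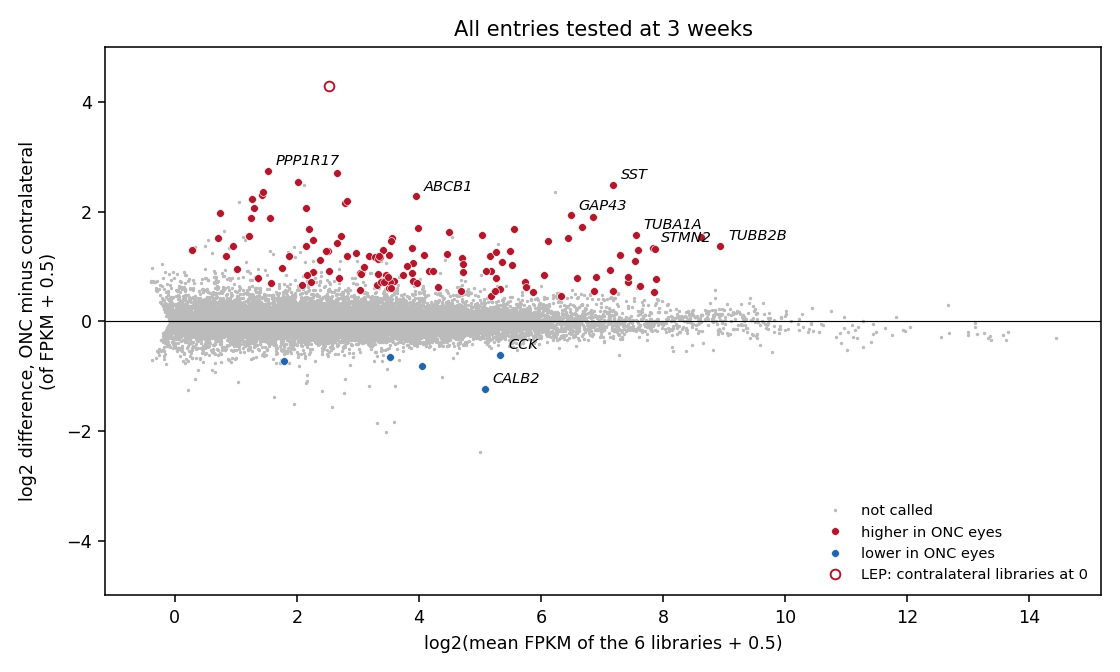
Log2 difference of ONC minus contralateral eyes at 3 weeks (vertical axis, of FPKM + 0.5) against the log2 mean expression of the 6 libraries (horizontal axis), 1 point for each of the 21565 entries tested, with called entries coloured. The 127 higher entries have differences of 0.47 and more, and the 5 lower entries have differences of -0.61 to -1.24. LEP is drawn as an open circle because its contralateral libraries are listed at 0.

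The neuronal intermediate filaments, which give the axon its calibre, stood furthest apart as a list. Of their 11 tested entries, 7 rose and 0 fell, and the median log2 difference of the list was 1.20, beside -0.01 over all entries. Of all entries tested, 0.589% rose and 0.0232% fell, and the calls of each list below stand beside these shares. The 7 higher entries were both of PRPH (peripherin, a filament of regrowing and peripheral neurons), both of NEFM (the medium neurofilament subunit) and 3 of the 7 of INA (alpha-internexin, a filament of central neurons). The list of 5 genes matched these 3 symbols alone. Its 4 entries that were not called were thus all of INA, the lowest at -0.19. With any 1 library left out, 6 or 7 entries of the list were called.

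The stronger PRPH entry had 54.9, 76.9 and 83.6 FPKM in ONC libraries, against 22.8, 21.8 and 20.2 FPKM in contralateral libraries, a log2 difference of 1.69 ± 0.15 (adjusted p = 0.00185). The lowest ONC library held more than 2 times the highest contralateral library. The second PRPH entry had 25.1, 32.7 and 43.4 FPKM in ONC libraries and 10.4, 11.2 and 9.35 FPKM in contralateral libraries (1.63 ± 0.18, adjusted p = 0.00575). Both copies thus rose by about the same factor, and in both ONC library 3 was the highest. The most changed INA entry had 46.6, 50.5 and 48.0 FPKM in ONC libraries, against 18.2, 13.9 and 15.97 FPKM in contralateral libraries (1.57 ± 0.10, adjusted p = 0.00084). The most abundant INA entry had 195.9, 194.4 and 162.8 FPKM in ONC libraries, against 103.5, 94.7 and 88.1 FPKM in contralateral libraries (0.94 ± 0.10, adjusted p = 0.0062). Here ONC library 3 was the lowest of the 3, the reverse of the order in PRPH. The third INA entry differed by 1.20 ± 0.10 (adjusted p = 0.0018), and the 2 NEFM entries, of 5.25 to 7.23 FPKM in ONC libraries and 1.31 to 3.03 FPKM in contralateral libraries, by 1.69 ± 0.16 (adjusted p = 0.00296) and 1.48 ± 0.20 (adjusted p = 0.0136).

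In the list of tubulins, the building blocks of microtubules, and of proteins that fold or modify them, 7 of 38 entries tested rose and 0 fell, with a median of 0.22. The shares over all entries were 0.589% and 0.0232%. All 7 were tubulins, with 1 of 4 tested entries of TUBA1A, the main alpha-tubulin of growing neurons. Of the beta-tubulins, 2 of 6 entries of TUBB2B, 2 of 3 of TUBB3 and both of TUBB were called. TUBA1A had 291.9, 274.2 and 274.7 FPKM in ONC libraries, against 110.1, 83.8 and 89.6 FPKM in contralateral libraries (1.57 ± 0.11, adjusted p = 0.00103). The ONC libraries lay within a narrow band, well clear of the other side. TUBB2B, the most abundant called entry, had 688.8, 708.4 and 723.4 FPKM in ONC libraries and 298.7, 245.9 and 277.8 FPKM in contralateral libraries (1.37 ± 0.10, adjusted p = 0.00123), and its second called entry differed by 0.81 ± 0.09 (adjusted p = 0.0066). TUBB3, the neuron-specific beta-tubulin, had 193.7, 222.6 and 242.5 FPKM in ONC libraries and 96.9, 88.2 and 97.0 FPKM in contralateral libraries (1.22 ± 0.10, adjusted p = 0.0018). In both genes the lowest ONC library was far above the highest contralateral one. The second TUBB3 entry differed by 0.81 ± 0.10 and the TUBB entries by 0.77 ± 0.11 and 0.64 ± 0.10. Without ONC library 2 the list had 3 calls, without ONC library 3, contralateral library 2 or contralateral library 3 it had 4, and otherwise 6. LRRC49, whose product is known in mice as a subunit of an enzyme that adds glutamate chains to tubulin, had 16.1, 16.7 and 17.0 FPKM in ONC libraries and 5.93, 5.56 and 5.51 FPKM in contralateral libraries (1.47 ± 0.08, adjusted p = 0.000541). Its values were almost equal within each side.

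Proteins of the growth cone, the motile tip of an axon, gave 14 higher and 0 lower entries of 69 tested, with a median of 0.15. The shares over all entries were 0.589% higher and 0.0232% lower. GAP43, a membrane protein long used as a mark of growing axons, rose in both of its entries. The stronger had 120.7, 133.3 and 171.6 FPKM in ONC libraries, against 34.97, 37.4 and 36.9 FPKM in contralateral libraries (1.93 ± 0.13, adjusted p = 0.00084), and naive eyes had 38.3, 38.4 and 41.6 FPKM. The contralateral and naive libraries were thus close together, with the ONC libraries far above both. The other GAP43 entry had 108.4, 130.5 and 147.4 FPKM in ONC libraries and 40.7, 51.5 and 41.1 FPKM in contralateral libraries (1.52 ± 0.14, adjusted p = 0.00185).

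STMN2 and STMN4, stathmins that bind tubulin dimers and regulate microtubules in growth cones, rose in both entries of each. The 2 STMN2 entries were nearly alike. One had 309.5, 333.4 and 334.9 FPKM in ONC libraries and 132.8, 136.2 and 117.4 FPKM in contralateral libraries (1.34 ± 0.09, adjusted p = 0.000929), and the other 312.0, 316.2 and 371.5 FPKM in ONC libraries and 131.1, 141.8 and 127.3 FPKM in contralateral libraries (1.31 ± 0.10, adjusted p = 0.00123). STMN4 differed by 1.46 ± 0.14 and 1.26 ± 0.10 (adjusted p = 0.00254 and 0.00173). Among the signalling adaptors of the collapsin response family, which link guidance receptors to the cytoskeleton, CRMP1 rose in both entries (1.24 ± 0.13 and 0.79 ± 0.11), DPYSL5 in 1 of 3 (0.74 ± 0.11) and DPYSL3 in 1 of 2 (0.56 ± 0.09), and no entry of DPYSL2 or DPYSL4 was called. DCX, a microtubule-binding protein of young neurons, differed by 1.21 ± 0.14 (adjusted p = 0.00763), and L1CAM, an adhesion molecule of axons, by 0.84 ± 0.13 (adjusted p = 0.0283). TMSB10, which sequesters actin monomers, had 172.2, 145.2 and 148.9 FPKM in ONC libraries and 45.4, 65.0 and 34.3 FPKM in contralateral libraries (1.72 ± 0.20, adjusted p = 0.00763). Unlike in PRPH and GAP43, its highest ONC library was the first. ISLR2, a neuronal membrane protein with leucine-rich repeats that is not in the growth cone list, had 54.1, 62.4 and 72.9 FPKM in ONC libraries and 25.2, 26.7 and 24.2 FPKM in contralateral libraries (1.29 ± 0.11, adjusted p = 0.00185). The growth cone list had 8 to 10 calls without ONC library 2, ONC library 3 or any 1 contralateral library, and 14 without ONC library 1. Of 49 entries for the motor proteins of axonal transport, KLC1, a kinesin light chain, alone rose (0.47 ± 0.08, adjusted p = 0.0415), although 11 entries had all ONC libraries above all contralateral ones and 0 had them all below. Over all entries tested these shares were 7.45% above and 8.92% below. The median of the motor protein list was 0.10, and KLC1 was called in 1 of the 6 fits with a library left out, the one without ONC library 1.

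**Figure D2:**
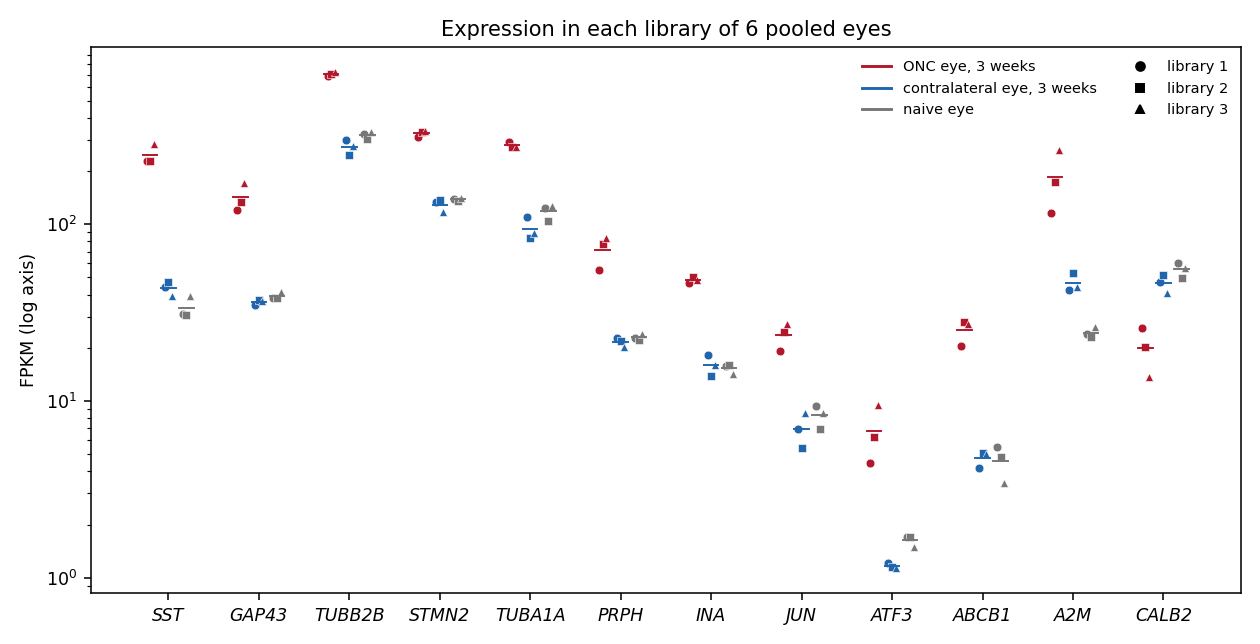
FPKM on a log axis (vertical) of 12 called entries (horizontal) in each library of 6 pooled eyes, for ONC eyes at 3 weeks, contralateral eyes at 3 weeks and naive eyes, with 1 symbol shape per library number and a bar at the group mean. In 11 of the 12 entries the ONC libraries lie above all contralateral ones. CALB2 is the exception, with 13.7 to 25.8 FPKM in ONC libraries and 41.0 to 51.4 FPKM in contralateral libraries.

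Transcription factors associated with regeneration came next, with 9 of 36 entries tested higher, 0 lower and a median of 0.13. Of all entries, 0.589% were higher and 0.0232% lower. ATF3, an early factor of nerve injury, rose in both entries. The first had 4.47, 6.23 and 9.49 FPKM in ONC libraries, against 1.21, 1.15 and 1.13 FPKM in contralateral libraries (2.06 ± 0.23, adjusted p = 0.0061), and the second 7.30, 8.47 and 12.3 FPKM in ONC libraries and 2.53, 2.88 and 2.93 FPKM in contralateral libraries (1.56 ± 0.18, adjusted p = 0.0066). In both, ONC library 3 had the most and library 1 the least. JUN, its frequent partner in DNA binding, had 19.1, 24.6 and 27.1 FPKM in ONC libraries and 6.92, 5.40 and 8.54 FPKM in contralateral libraries in its stronger entry (1.70 ± 0.18, adjusted p = 0.00406). A second JUN entry rose by 0.92 ± 0.14 (adjusted p = 0.0276), and the other two of its 4 entries, at about 3 FPKM on both sides, had differences of -0.27 and -0.11 and were not called. MYC, a factor of growth and ribosome production, rose by 1.18 ± 0.12 and 1.01 ± 0.12 (adjusted p = 0.00323 and 0.00763). SOX11, a factor of immature neurons, had 9.64, 15.3 and 16.1 FPKM in ONC libraries and 5.83, 5.61 and 5.29 FPKM in contralateral libraries in its stronger entry (1.19 ± 0.18, adjusted p = 0.0248) and rose in the second by 1.18 ± 0.17 (adjusted p = 0.0244). Its first ONC library stood below the other two in both entries, and neither call held without ONC library 2, ONC library 3, contralateral library 2 or contralateral library 3. KLF7, a factor of axon growth in mammals, rose by 0.73 ± 0.10 (adjusted p = 0.0139). This list had 4 calls without ONC library 2, 5 without ONC library 3, contralateral library 2 or contralateral library 3, 7 without contralateral library 1 and 10 without ONC library 1. Among 34 entries for immediate early genes, the higher ones were again those of ATF3 and JUN, and the median of the list was -0.07.

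Of the retinal ganglion cell list, 6 of 38 entries tested rose, 0 fell and the median was 0.09, while 0.589% of all entries rose and 0.0232% fell. The 6 belong to STMN2, already given with the growth cone, and to SNCG, THY1, ELAVL4 and EBF3. SNCG, a synuclein that fills ganglion cell bodies and axons, had 62.1, 58.8 and 45.7 FPKM in ONC libraries, against 27.7, 25.2 and 24.2 FPKM in contralateral libraries (1.09 ± 0.12, adjusted p = 0.00647). THY1, a surface glycoprotein of ganglion cells in rodents, had 33.6, 34.6 and 37.1 FPKM in ONC libraries and 15.0, 18.2 and 16.8 FPKM in contralateral libraries (1.06 ± 0.09, adjusted p = 0.00185). In both of these entries every ONC library was well above the other side, with ONC library 3 the lowest for SNCG and the highest for THY1. The other SNCG entry differed by 0.26 and was not called (adjusted p = 0.778). ELAVL4, a neuronal RNA-binding protein, rose by 1.03 ± 0.12 (adjusted p = 0.00926) and EBF3, a transcription factor of ganglion cells and amacrine cells, by 0.88 ± 0.14 (adjusted p = 0.0295).

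Among genes used as markers of ganglion cells, SNCG was called in 1 of its 2 entries, as given above. The others given here were present on both sides, and none of them was called. RBPMS2, an RNA-binding protein used to mark these cells, had 77.0, 74.4 and 52.0 FPKM in ONC libraries and 82.9, 74.3 and 72.0 FPKM in contralateral libraries in 1 entry, a difference of -0.19 with a 95% interval of -0.53 to 0.15. Its other entry differed by -0.08 (-0.50 to 0.34). The groups overlapped in the first entry, with ONC library 3 the lowest of all 6. The ganglion cell transcription factors POU4F1 (0.09 and 0.25), POU4F2 (-0.36, interval -0.96 to 0.23) and ISL2 (-0.04 and -0.11) had intervals that included 0. So had ATOH7 (0.08 and -0.01), which is not taken here as a marker of mature ganglion cells. The intervals of POU4F3 (0.34, interval 0.10 to 0.59, and 0.52, interval 0.26 to 0.78) and of SLC17A6, the glutamate transporter of ganglion cell synapses (0.39, interval 0.16 to 0.61), lay above 0 before any adjustment over entries.

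Further transcripts rose, some of them at high levels. MLLT11 and UCHL1, an abundant deubiquitinase of neurons, rose in both entries, MLLT11 by 1.10 ± 0.12 and 0.53 ± 0.09 and UCHL1 by 1.30 ± 0.13 and 0.79 ± 0.10. An abundant entry without a symbol had 535.8, 572.7 and 645.2 FPKM in ONC libraries and 224.7, 207.1 and 170.6 FPKM in contralateral libraries (1.54 ± 0.13, adjusted p = 0.00173). It was surpassed in level among called entries by TUBB2B alone. Reticulons, which shape the endoplasmic reticulum, rose in 2 entries each of RTN1 (0.59 ± 0.07 and 0.47 ± 0.08) and RTN2 (1.43 ± 0.13 and 0.64 ± 0.09). Not all of these calls were firm. Of the 6 fits with a library left out, the weaker MLLT11 entry and 1 RTN1 entry were called in 0. The weaker UCHL1 entry was called in 3 and the weaker RTN2 entry in 2. Of 53 entries for synaptic vesicles and release, SYT4, a calcium sensor relative, alone rose (0.56 ± 0.09, adjusted p = 0.0368), against a list median of -0.11. SYT4 was called in 1 of the 6 fits with a library left out, the one without ONC library 1.

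Secreted factors gave the steepest single rises. LEP, the hormone leptin, known in mammals as the satiety signal of fat tissue, had 4.96, 9.65 and 16.8 FPKM in ONC libraries and was listed at 0 in all contralateral libraries (adjusted p = 0.00173). ONC library 3 had more than 3 times the value of library 1, so the level was uneven but the separation complete. This entry lies on scaffold 000104110 of assembly JGIv7b at 1273532 to 1280399 on the plus strand. The other LEP entry had 2.098, 3.58 and 5.50 FPKM in ONC libraries and 0.794, 1.46 and 1.21 FPKM in contralateral libraries, a difference of 1.29 that was not called (adjusted p = 0.142). Of 39 entries for leptin, JAK-STAT and SOCS genes, 3 rose and 0 fell, the other two being SOCS3, a feedback inhibitor of cytokine signalling that is switched on by STAT3, at 1.28 ± 0.12 and 0.99 ± 0.15 (adjusted p = 0.00241 and 0.0279). SOCS3 had 4 tested entries, and its other entries were not called. The median of the leptin, JAK-STAT and SOCS list was 0.09, and its calls numbered 2 to 6 with 1 library left out. Of all entries tested, 0.589% rose.

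SST, the inhibitory neuropeptide somatostatin, had 226.9, 228.4 and 283.1 FPKM in ONC libraries, against 44.0, 47.0 and 39.3 FPKM in contralateral libraries (2.48 ± 0.11, adjusted p = 0.00018, the smallest of all entries tested). Naive eyes had 31.0, 30.6 and 39.3 FPKM, near the contralateral side. A second SST entry was lower in each ONC library than in any contralateral one, with 44.3, 51.0 and 41.6 FPKM in ONC libraries and 62.1, 58.4 and 53.9 FPKM in contralateral libraries (-0.35, 95% interval -0.57 to -0.12, adjusted p = 0.249), and was not called. The called SST entry lies on scaffold 000203280 at 897911 to 899783 on the minus strand and the other on scaffold 000053349 at 419593 to 421460 on the plus strand. IGF2, an insulin-like growth factor, rose in both entries, with 8.55, 9.54 and 14.6 FPKM in ONC libraries and 1.57, 2.13 and 2.31 FPKM in contralateral libraries in the stronger (2.16 ± 0.20, adjusted p = 0.00242) and a difference of 1.19 ± 0.15 in the other (adjusted p = 0.00927). ANGPTL5, a secreted relative of the angiopoietins, had 7.33, 7.31 and 16.9 FPKM in ONC libraries and 1.13, 0.713 and 1.47 FPKM in contralateral libraries (2.70 ± 0.32, adjusted p = 0.00763). ONC library 3 was again far above the other two. STC1, a glycoprotein hormone of calcium and phosphate balance first known in fish, rose by 1.52 ± 0.19 (adjusted p = 0.00937), and MDK, the heparin-binding growth factor midkine, by 0.55 ± 0.09 (adjusted p = 0.0419). This MDK entry was called in 1 of the 6 fits with a library left out. The other MDK entry differed by 0.17 and was not called (adjusted p = 0.514). SLIT1, a guidance cue that repels axons, rose by 1.20 ± 0.15 (adjusted p = 0.0105). It was the 1 called entry of 80 tested for axon guidance, a list with a median of -0.07, and was not called without ONC library 2 or contralateral library 2.

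Several of the largest rises were in genes of transport and signalling. PPP1R17, an inhibitor of protein phosphatases known from cerebellar Purkinje cells of mammals, had 3.45, 4.69 and 5.46 FPKM in ONC libraries and 0.373, 0.246 and 0.121 FPKM in contralateral libraries (2.75 ± 0.20, adjusted p = 0.0012). ABCB1, the drug efflux pump P-glycoprotein, had 20.3, 28.0 and 27.3 FPKM in ONC libraries and 4.20, 5.08 and 5.01 FPKM in contralateral libraries (2.28 ± 0.14, adjusted p = 0.000624). In both genes no ONC library came near the other side. CASP9, an initiator caspase of cell death, rose by less, 0.61 ± 0.08 (adjusted p = 0.0126). It was called in 2 of the 6 fits with a library left out. EDA2R, a receptor of the tumour necrosis factor family, rose by 1.88 ± 0.23 (adjusted p = 0.00957), EMB, a partner of lactate transporters, by 2.30 ± 0.20 (adjusted p = 0.00185), and MRAP2, an accessory protein of melanocortin receptors, by 1.98 ± 0.17 (adjusted p = 0.00185). TRIM66, a nuclear tripartite motif protein, rose by 2.37 ± 0.30 (adjusted p = 0.012), MEDAG by 2.23 ± 0.36 (adjusted p = 0.0393), LMOD2, an actin filament nucleator known from striated muscle, by 2.06 ± 0.18 (adjusted p = 0.00185), and ECEL1, a membrane metalloprotease of injured neurons in mice, by 1.89 ± 0.26 (adjusted p = 0.0156). PKIB, an inhibitor of protein kinase A, rose by 1.56 ± 0.15 (adjusted p = 0.00254) in the weakest of its entries.

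Calls were few in the lists of glia and of complement. NES, the intermediate filament nestin of progenitors and reactive Müller glia, rose in both entries, by 1.31 ± 0.20 and 0.84 ± 0.14 (adjusted p = 0.0309 and 0.0459), and was the only called gene among 58 Müller glia and astrocyte entries, whose median was -0.01. Neither NES entry was called without ONC library 2, contralateral library 1 or contralateral library 2, and 1 of them was called in each of the other fits with a library left out. Of 27 complement and acute phase entries 3 rose, with a median of 0.27, against 0.589% of all entries tested. The summed FPKM of the list was 688.3 to 865.1 in ONC libraries and 457.6 to 513.3 in contralateral libraries. A2M, a broad protease inhibitor of plasma, had 115.1, 172.4 and 264.3 FPKM in ONC libraries and 42.7, 52.8 and 44.1 FPKM in contralateral libraries in the called entry (1.90 ± 0.26, adjusted p = 0.0151), and naive eyes had 23.8, 23.0 and 26.3 FPKM. ONC library 3 had more than 2 times the value of library 1, the contralateral libraries lay between the naive and the ONC libraries, and the 4 other A2M entries were not called. C9, a part of the pore that complement forms, rose by 1.16 ± 0.18 (adjusted p = 0.0284). Without ONC library 2 the list had 0 calls, without ONC library 3 the list had 2 calls, and without any 1 of the contralateral libraries it had 1, with A2M lost each time.

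None of 47 microglia and macrophage entries passed the limma test, with 3 at an unadjusted p under 0.05 and a median of 0.05. Their summed FPKM overlapped, at 745.6 to 907.1 in ONC libraries and 706.4 to 992.9 in contralateral libraries. The same was so for 17 granulocyte entries (1 at an unadjusted p under 0.05, median 0.08), 10 lymphocyte entries (0 at an unadjusted p under 0.05, median 0.02) and 33 entries of antigen presentation and interferon (1, median -0.07). Of all 21565 entries tested, 0.612% were called and 2158 had an unadjusted p under 0.05. Matrix proteases were set apart by their direction. Of 48 entries for metalloproteinases and their inhibitors, 17 had all ONC libraries above all contralateral ones and 0 had them all below, with a median of 0.17, and 2 were called. The shares over all entries tested were 7.45% above and 8.92% below. TIMP3, an inhibitor held in the matrix beneath the pigment epithelium, had 47.4, 55.3 and 38.6 FPKM in ONC libraries and 23.5, 26.3 and 23.6 FPKM in contralateral libraries (0.92 ± 0.13, adjusted p = 0.0178). Naive eyes had 30.1, 34.6 and 42.5 FPKM of TIMP3, above every contralateral library and overlapping the ONC libraries. MMP15, a membrane-bound protease, rose by 0.72 ± 0.11 (adjusted p = 0.0283). Both calls were lost without ONC library 1, ONC library 2, contralateral library 1 or contralateral library 2, and 1 of them without ONC library 3 or contralateral library 3. The 1 call among 35 pigment epithelium entries, whose median was -0.09, was TTR, the carrier of thyroid hormone and of the retinol-binding protein, with 19.6, 21.1 and 29.1 FPKM in ONC libraries and 8.60, 9.85 and 10.6 FPKM in contralateral libraries (1.21 ± 0.15, adjusted p = 0.0105), and it was lost without ONC library 2 or contralateral library 2. CXCR4, a chemokine receptor of migrating cells and growing axons, rose by 0.69 ± 0.12 in 1 entry (adjusted p = 0.0446). That entry was called in 0 of the 6 fits with a library left out. The other, more abundant CXCR4 entry differed by 0.48 and was not called (adjusted p = 0.113).

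The 5 lower entries were CALB2, NTS, SNTG1, RXFP1 and CCK. CALB2, the calcium-binding protein calretinin of amacrine and ganglion cells, had 25.8, 20.3 and 13.7 FPKM in ONC libraries, against 47.1, 51.4 and 41.0 FPKM in contralateral libraries (-1.24 ± 0.20, adjusted p = 0.0374). Its more abundant entry had 150.0, 111.7 and 108.1 FPKM in ONC libraries and 196.1, 197.7 and 165.8 FPKM in contralateral libraries (-0.61 ± 0.14, adjusted p = 0.143) and was not called. In both entries the groups stood apart, and ONC library 3 was the lowest. NTS, the neuropeptide neurotensin, had 12.3, 10.9 and 11.2 FPKM in ONC libraries and 24.1, 18.5 and 19.6 FPKM in contralateral libraries (-0.82 ± 0.11, adjusted p = 0.0163). CCK, the neuropeptide cholecystokinin, had 34.0, 31.4 and 28.6 FPKM in ONC libraries and 49.4, 46.2 and 48.8 FPKM in contralateral libraries (-0.61 ± 0.09, adjusted p = 0.0191). A second entry of each, NTS at -0.31 and CCK at -0.09, was not called. RXFP1, a receptor of relaxin, fell by 0.64 on the log2 scale (SE 0.11, adjusted p = 0.0448), and SNTG1, a neuronal syntrophin of the membrane skeleton, fell by 0.73 (SE 0.12, adjusted p = 0.0415). None of the 5 was called without ONC library 2, and CALB2 and CCK were also lost without any 1 of the contralateral libraries. Of the 6 fits with a library left out, NTS was called in 3, CALB2 in 2, CCK and RXFP1 in 1 each and SNTG1 in 0.

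Other neurons of the retina had small differences that leaned one way. For photoreceptors, 25 of 60 entries tested had all ONC libraries below all contralateral ones and 0 had them all above, with a median of -0.19. The same count was 18 below and 1 above of 42 for amacrine cells (median -0.23), 10 and 0 of 28 for bipolar cells (median -0.18), 4 and 0 of 13 for horizontal cells (median -0.14) and 18 and 3 of 54 for neuropeptides and neurotrophic factors (median -0.24). Over all 21565 entries tested, 8.92% lay below and 7.45% above in this way, and the median was -0.01. At an unadjusted p under 0.05, 1033 of them were lower in ONC eyes. In none of these lists were entries called lower other than CALB2, NTS and CCK, and at an unadjusted p under 0.05 the lower entries numbered 11 for photoreceptors, 17 for amacrine cells, 10 for bipolar cells and 2 for horizontal cells. SLC32A1, the transporter that loads GABA and glycine into vesicles, is an example, with 44.9, 43.9 and 45.9 FPKM in ONC libraries and 57.1, 56.1 and 54.2 FPKM in contralateral libraries (-0.31 ± 0.07, adjusted p = 0.144). GNAT1, the G protein of rods, had 2828, 2434 and 2826 FPKM in ONC libraries and 3093, 3155 and 2982 FPKM in contralateral libraries (-0.19 ± 0.15, adjusted p = 0.73). Both were below the contralateral side in each ONC library, by less than the test could call. The summed photoreceptor FPKM was 24251 to 27040 in ONC libraries and 28185 to 29690 in contralateral libraries. FPKM are relative to the whole library, and the summed lens entries ranged from 157604 to 226121 in ONC libraries and from 214535 to 228680 in contralateral libraries. The part of these shares in the small differences was not tested beyond the scaling to the sum without crystallins, which turned the median of none of these lists.

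**Figure D3:**
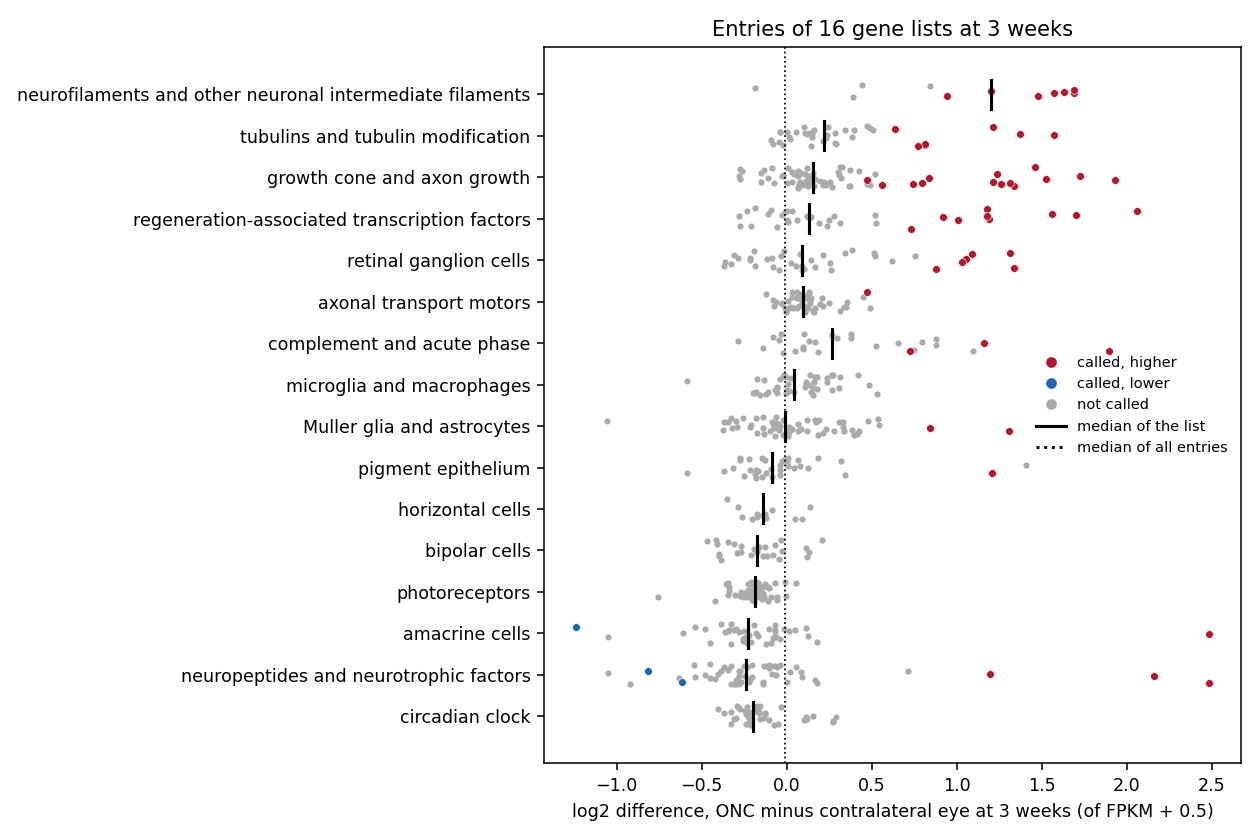
Log2 difference of ONC minus contralateral eyes at 3 weeks (horizontal axis) of every tested entry of 16 gene lists (rows), with called entries coloured, the median of each list as a short bar and the median of all entries as a dotted line. Neuronal intermediate filaments stand out with a median of 1.20, while the lists of photoreceptors, bipolar, amacrine and horizontal cells have medians of -0.14 to -0.23.

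Lists for other tissues and processes had no called entry in limma. Of all 21565 entries tested, 0.612% were called and 2158 had an unadjusted p under 0.05. At that share of calls, a list of this length can be without a call. Skeletal muscle had 50 entries tested (2 at an unadjusted p under 0.05) with a median of 0.37, and its summed FPKM was 6532 to 8022 in ONC libraries and 3990 to 8309 in contralateral libraries, with contralateral library 3 the highest of all 6. Lens had 54 (8 in either direction, median -0.22), cornea, skin and keratins 55 (4, median 0.17), myelin 19 (4, median 0.09) and red blood cells 22 (3, median 0.04). The lists of cell division had no call either, in 49 entries of DNA replication (1, median 0.07) and 61 of mitosis (0, median 0.15). Heat shock proteins and chaperonins resembled the proteases, with 17 of 49 entries above all contralateral libraries, 0 below, 12 at an unadjusted p under 0.05 and a median of 0.16. HSPA8, the constitutive chaperone, is an example with 759.5, 779.9 and 743.2 FPKM in ONC libraries and 643.3, 673.6 and 695.7 FPKM in contralateral libraries (0.18, adjusted p = 0.608). The clock genes leaned down, with 12 of 44 below, 1 above, 11 at an unadjusted p under 0.05 and a median of -0.20. For both lists, the shares over all entries tested were 7.45% above and 8.92% below. The remaining lists were the amino acid stress response (34 tested, 9 at an unadjusted p under 0.05, median 0.08), collagens and matrix (55, 9, 0.14), cholesterol and fatty acid synthesis (53, 6, 0.01), lipid transport (26, 5, -0.08), ion channels (31, 4, -0.17), chromatin (48, 3, -0.04) and glycolysis (40, 3, 0.02).

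Entries of the same symbol often rose together, but not always. Of the 96 symbols with a higher entry, 68 had 2 or more entries tested and 28 had 1. Of the 48 symbols with exactly 2 entries, both were called higher in 21, and in 27 the second was not called, 24 of these with a difference above 0. The median gap between the 2 log2 differences was 0.43. The pairs STMN2, VAT1, SOX11 and PRPH had gaps of 0.02, 0.02, 0.01 and 0.06. At the other end were SST with 2.48 and -0.35, EMB with 2.30 and 0.41, ABCB1 with 2.28 and 0.54, LMOD2 with 2.06 and 0.59 and SLIT1 with 1.20 and -0.24. The gap of LEP was wider still, but its called entry was listed at 0 in all contralateral libraries. The differences between entries of a pair were not tested, and reads that fit both copies equally had been split between them at random.

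**Figure D4:**
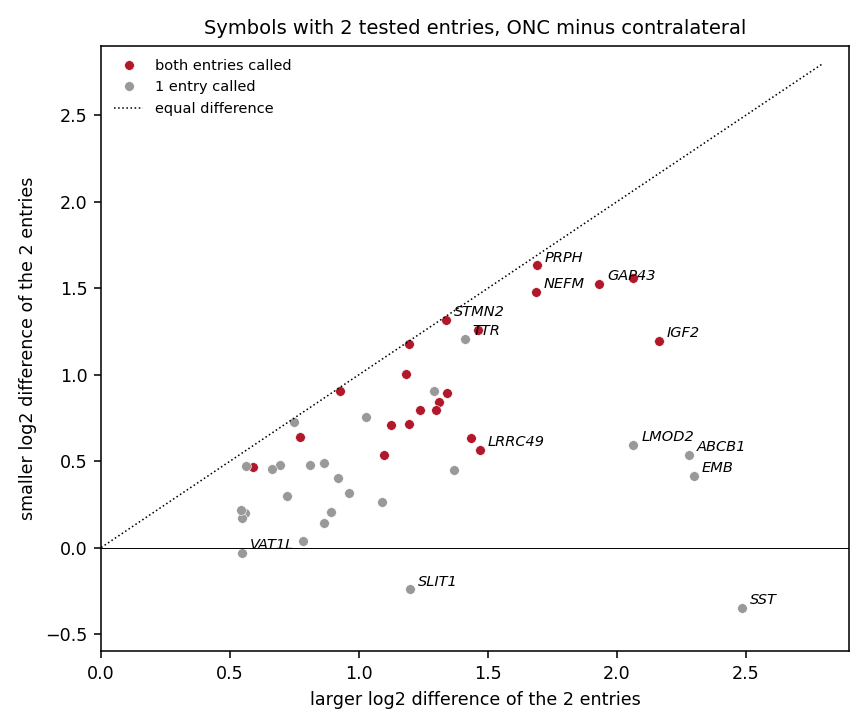
For symbols with 2 tested entries of which at least 1 was called higher, the smaller log2 difference (vertical axis) against the larger (horizontal axis), with a dotted line where both are equal. Both entries were called in 21 symbols. LEP is not drawn, because its called entry is listed at 0 in all contralateral libraries. Of the symbols drawn, SST lies furthest below the line with 2.48 and -0.35.

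The ONC libraries did not rise to the same height. ONC library 3 was the highest of the 3 in 86 of the 127 higher entries, library 2 in 28 and library 1 in 13, and library 1 was the lowest in 92. The highest ONC value was 1.25 times the lowest at the median entry and at least 2 times in 9 entries, among them LEP, ANGPTL5 and A2M. Library 3 also had the lowest share of crystallins, at 25.1%, against 28.1% in library 2 and 30.5% in library 1. The part of that share in the order of the libraries was not tested.

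Compared with earlier times, the same transcripts were followed in other frogs. The 127 entries chosen for their rise at 3 weeks had median log2 differences of 0.28 at 3 days, of 1.33 at 11 days and of 1.12 at 3 weeks, each against the contralateral eyes of its own time. The first 2 are descriptions of other libraries, and the last was fixed by the choice of entries. The 3-week response differed from the 11-day response in 15 of 21828 entries tested (0.0687%), with 5 differences above 0 (0.0229%) and 10 below (0.0458%), and 1596 entries had an unadjusted p under 0.05. Scaling to the sum without crystallins gave 13, of which 7 were above 0 and 6 below. Leaving out replicate 1, 2 or 3 in all groups gave 1, 1 and 7 differences, of which 1, 1 and 4 were among the 15. It differed from the 3-day response in 14 of 22200 entries (0.0631%), 12 above 0 (0.0541%) and 2 below (0.00901%), with 1173 at an unadjusted p under 0.05, and leaving out replicate 1, 2 or 3 gave 0, 0 and 8, of which 3 were among the 14. Of the libraries of the earlier times, 3 of 6 at 3 days and 5 of 6 at 11 days carry a letter B in their labels whose meaning is not given, and none at 3 weeks does. With that letter as a covariate the counts were 19 and 40.

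Of the growth cone list, 1 of 69 entries differed in response from 11 days, and the list had a median of 0.15 at 3 weeks and of 0.19 at 11 days. The share over all entries tested was 0.0687%. Of the list of tubulins and their modification, 3 of 38 entries differed, with medians of 0.22 at 3 weeks and 0.45 at 11 days. The second GAP43 entry had 261.5, 327.1 and 309.9 FPKM in ONC libraries at 11 days and 46.7, 43.6 and 43.9 FPKM in their contralateral libraries, and with the 3-week values above its response at 3 weeks differed by -1.20 ± 0.19 on the log2 scale (adjusted p = 0.0417). The stronger GAP43 entry did not pass (adjusted p = 0.0625). TUBB3 had 380.7, 514.6 and 387.7 FPKM in ONC libraries at 11 days and 70.1, 74.8 and 86.0 FPKM in contralateral libraries, and its response at 3 weeks differed by -1.24 ± 0.19 (adjusted p = 0.0417) and by -1.11 ± 0.15 in its second entry (adjusted p = 0.0203). At both times each ONC library of these genes lay above all contralateral libraries. The responses of MYC and of the second TUBB2B entry differed by -1.03 ± 0.16 and -0.93 ± 0.14 (both adjusted p = 0.0417).

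Of the amino acid stress response, 2 of 34 entries differed in response from 11 days, those of ASNS and PSPH, against 0.0687% of all entries tested. ASNS, which makes asparagine, had 48.0, 51.2 and 52.6 FPKM in ONC libraries at 11 days and 8.42, 9.69 and 11.8 FPKM in contralateral libraries. At 3 weeks it had 27.8, 34.1 and 29.4 FPKM in ONC libraries and 16.4, 20.1 and 21.9 FPKM in contralateral libraries, and its response differed by -1.66 ± 0.19 (adjusted p = 0.00484). Naive eyes had 27.9, 30.8 and 30.8 FPKM, near the ONC libraries of 3 weeks and above the contralateral libraries of both times. Every ONC library of 3 weeks was above every contralateral one, but the 3-week difference of 0.64 alone was not called. PSPH, the last enzyme of serine synthesis, had 24.6, 29.4 and 27.2 FPKM in ONC libraries at 11 days and 5.17, 4.71 and 5.86 FPKM in contralateral libraries. It had 22.9, 20.7 and 25.7 FPKM in ONC libraries at 3 weeks and 14.1, 16.2 and 19.1 FPKM in contralateral libraries, and its response differed by -1.78 ± 0.18 (adjusted p = 0.00262). Naive eyes had 14.1, 14.8 and 17.8 FPKM of PSPH. In both genes the contralateral libraries were lower at 11 days than at 3 weeks, and for PSPH the ONC libraries of the 2 times overlapped. FADS2, a desaturase of fatty acids, differed by -1.31 ± 0.18 (adjusted p = 0.0248) and GFRA2, a receptor of neurturin, by -1.18 ± 0.18 (adjusted p = 0.0417).

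RBPMS2, GRP and FXYD6 were lower in ONC eyes than in contralateral eyes at 11 days, by more than at 3 weeks. RBPMS2 had 27.5, 34.97 and 31.8 FPKM in ONC libraries at 11 days and 85.7, 85.7 and 81.6 FPKM in contralateral libraries, and with the 3-week values given above its response was higher by 1.23 ± 0.20 at 3 weeks (adjusted p = 0.0496). GRP, the neuropeptide gastrin-releasing peptide, had 1.11, 2.07 and 1.40 FPKM in ONC libraries at 11 days and 28.9, 31.5 and 33.3 FPKM in contralateral libraries. At 3 weeks it had 17.6, 13.8 and 5.65 FPKM in ONC libraries and 17.3, 16.8 and 13.5 FPKM in contralateral libraries, so the groups overlapped and ONC library 3 was the lowest (3.51 ± 0.43 for the difference of the responses, adjusted p = 0.0103). Naive eyes had 18.4, 14.2 and 18.0 FPKM. The second GRP entry had 6.88, 2.16 and 3.50 FPKM in ONC libraries at 3 weeks and 11.2, 5.91 and 8.78 FPKM in contralateral libraries, a difference of -1.05 that was not called, and its responses differed by 2.75 ± 0.43 (adjusted p = 0.042). FXYD6, a regulator of the sodium pump, had 5.16, 5.56 and 4.14 FPKM in ONC libraries at 3 weeks and 7.04, 6.96 and 6.43 FPKM in contralateral libraries, and its responses differed by 1.64 ± 0.17 (adjusted p = 0.00309). Every ONC library of FXYD6 was still below every contralateral one at 3 weeks, a difference of -0.43 that was not called.

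Against 3 days, 2 of 11 entries of neuronal intermediate filaments and 5 of 38 of the ganglion cell list differed in response, beside 0.0631% of all entries tested. The other 7 of the 14 were LRRC49, PPP1R17, ISLR2, TUBB3, UMOD, APOE and TMEM182. The most changed INA entry had 5.30, 6.23 and 7.07 FPKM in ONC libraries at 3 days and 15.2, 22.1 and 11.9 FPKM in contralateral libraries. It was thus below its contralateral side in every ONC library at 3 days and above it in every one at 3 weeks, with responses that differed by 2.87 ± 0.27 (adjusted p = 0.00179). SNCG had 14.8, 11.0 and 21.7 FPKM in ONC libraries at 3 days and 50.9, 37.2 and 57.7 FPKM in contralateral libraries (2.71 ± 0.32 for the difference of the responses, adjusted p = 0.0071). POU4F3 had 7.40, 6.35 and 7.43 FPKM in ONC libraries at 3 days and 19.9, 17.2 and 18.9 FPKM in contralateral libraries, and at 3 weeks 18.0, 18.7 and 17.6 FPKM in ONC libraries and 14.4, 16.1 and 12.2 FPKM in contralateral libraries (1.68 ± 0.16, adjusted p = 0.00179). SNCG and POU4F3 were thus also below the contralateral side at 3 days and above it at 3 weeks, POU4F3 by a margin at 3 weeks that was not called by itself. THY1, STMN2, ISLR2, PPP1R17, LRRC49 and TUBB3 had 3-day differences between -0.16 and 0.06, and their responses were higher at 3 weeks by 1.16 to 2.68. The adjusted p of these 6 lay between 0.00179 and 0.0193.

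**Figure D5:**
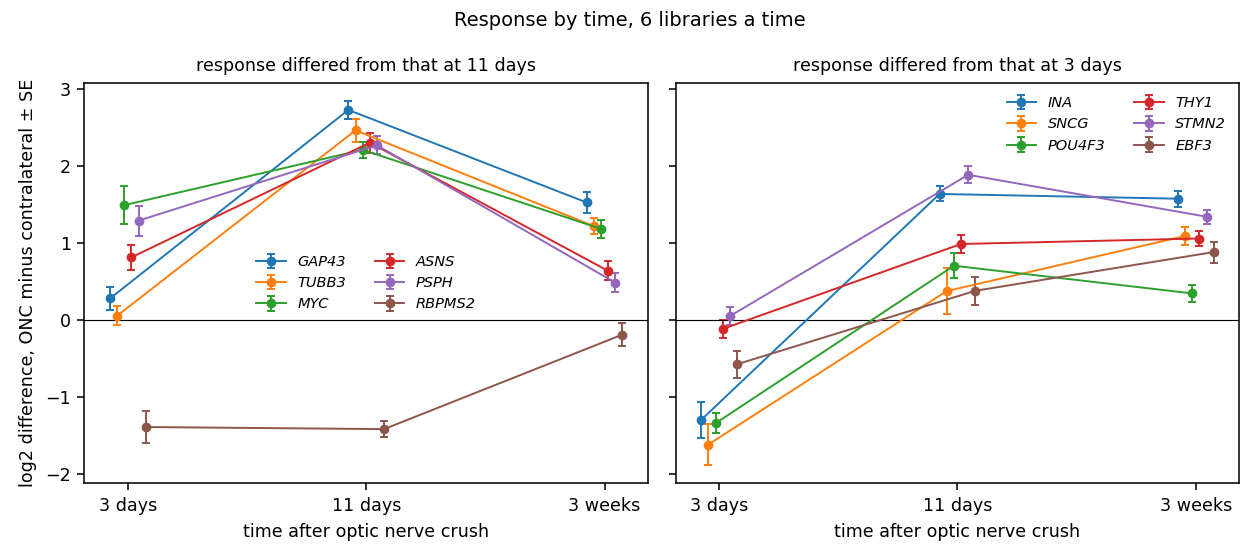
Log2 difference of ONC minus contralateral eyes (vertical axis, ± SE, 6 libraries a time) by time after the crush, 3 days to 3 weeks (horizontal axis), for genes whose 3-week response differed from that at 11 days (left) and from that at 3 days (right). GAP43, TUBB3, MYC, ASNS and PSPH are higher at 11 days than at 3 weeks, and INA, SNCG, POU4F3 and EBF3 are below 0 at 3 days and above 0 at 3 weeks.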

How the data were processed

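RNA-seq libraries of pooled whole eyes were analysed. The authors aligned reads with Bowtie2 2.2.9 and TopHat2 2.1.1, used the Mayball gene models, split the few reads that fitted both homeologs equally at random between them, and deposited expression as FPKM scaled with the Cufflinks tools. Values were used as deposited, as log2(FPKM + 0.5), and no read counts were used.

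Entries that averaged 0.45 FPKM or more in either group were tested with limma 3.58.1 (R 4.3.3), with a variance trend and Benjamini-Hochberg adjustment over all entries tested. Only the 6 libraries of the comparison entered the fit. Differences between times were interaction terms of 12 libraries, and 95% intervals are limma's. Tables were made with Python 3.11.15 and pandas 2.3.3, and the fit was tested on simulated data. The comparison, the 39 gene lists and the tests were chosen with earlier results of these data known. Lists are given as counts and medians without a test.

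Genes named are called entries at 3 weeks with a symbol and at least 1 FPKM in the higher group (the 25 largest rises and 10 largest falls), called entries of a list, the 5 called entries of highest mean, and in each interaction test the 5 with the smallest p in each direction. RTN1, RTN2, MLLT11, UCHL1, LRRC49, ISLR2, VAT1, MDK, STC1, CASP9, CXCR4, PKIB, LMOD2 and entries set beside a named one were added after their values were seen. Some are also selected by that rule, and some genes it selects are not reported here. Alternatives were pseudocounts of 0.1 and 1, no filter, 0.45 FPKM in every library, median-of-ratios scaling, scaling without crystallins, a replicate block, limma without trend or robust, all 21 eye libraries in 1 fit and each library left out. The letter B as a covariate was chosen after seeing the data.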

Additional observations from a re-analysis of the deposited data

Results flagged for a closer look

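In limma's test of the interaction, 29 differences between a response at 3 weeks and that at an earlier time were called, 15 of them against 11 days. The more changed TUBB3 entry was called against both times. CRYGB, a lens crystallin, had 26829, 18124 and 15364 FPKM in ONC libraries at 3 weeks and 24088, 24121 and 24543 FPKM in contralateral libraries, and at 11 days it was listed at 0 in all ONC libraries and had 54032, 43039 and 76336 FPKM in contralateral libraries (adjusted p = 1.84e-11). An entry listed at 0 may be a failed estimate, and no fold is given. The log2 differences of the responses, 3 weeks minus 11 days, were -1.78 for PSPH, 1.64 for FXYD6, -1.66 for ASNS, 3.51 and 2.75 for GRP, -1.11 and -1.24 for TUBB3, -1.31 for FADS2, -1.18 for GFRA2, -0.93 for TUBB2B, -1.03 for MYC, -1.20 for GAP43 and 1.23 for RBPMS2. FABP6, a bile acid binding protein, had 0.967, 1.17 and 1.92 FPKM in ONC libraries at 3 weeks and 0.238, 0.667 and 0.462 FPKM in contralateral libraries, with a difference of the responses of -2.79 (adjusted p = 0.0417).

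Against 3 days, the differences of the responses were 1.57 for LRRC49, 2.87 and 1.93 for INA, 1.68 for POU4F3, 1.29 for STMN2, 1.45 for ISLR2, 2.68 for PPP1R17, 2.71 for SNCG, 1.17 for THY1, 1.16 for TUBB3 and 1.46 for EBF3. TMEM182, a membrane protein of muscle, differed by 1.42 (adjusted p = 0.038). UMOD, uromodulin, had 0 to 0.0479 FPKM in ONC libraries at 3 weeks and 0.0456 to 0.140 FPKM in contralateral libraries, and 3.97, 7.73 and 4.95 FPKM in ONC libraries at 3 days (-3.57, adjusted p = 0.00179). APOE, a lipid carrier of glia and macrophages, had 2.54, 2.63 and 3.99 FPKM in ONC libraries at 3 weeks and 2.098, 3.51 and 2.94 FPKM in contralateral libraries, against 11.3, 15.0 and 16.9 FPKM in ONC libraries at 3 days (-2.18, adjusted p = 0.038).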

How the results depend on the processing

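The count of 132 calls at 3 weeks ranged from 49 to 138 when 1 library was left out (74 without ONC library 3, 66 and 85 without contralateral libraries 2 and 3). In the 10 other alternatives it was 98 to 147, and 40 entries were called in all 16 alternatives. The count of 15 differences against 11 days became 8 with no filter on low values, 6 without the variance trend, 13 (7 above 0, and 11 of the 15 among them) with scaling to the sum without crystallins, which moved the median of all entries to 0.12, and 1, 1 and 7 (4 of the 15 among the last) without replicates 1, 2 and 3. The count of 14 against 3 days became 75 with all 21 eye libraries in 1 fit, 40 with the letter B as a covariate, chosen after seeing the data, (both with all 14 among them) and 0, 0 and 8 (3 of the 14 among the last) without replicates 1, 2 and 3. No called entry turned its direction, which for the 3-week calls was fixed in advance in the fits with 1 library left out. The balance of the differences against 11 days did turn. In the main fit 10 of the 15 lay below 0, and with scaling to the sum without crystallins 7 of 13 lay above 0. Of lists, cholesterol synthesis alone had a median that changed sign with scaling (0.01 against -0.00).

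Both eyes came from the same frogs, but which pools match is not given. Deviations of same-numbered libraries correlated with r of 0.17, 0.22 and -0.02 at 3 weeks and of 0.27, -0.06 and 0.17 at 11 days. At 3 days r was -0.20, 0.54 and 0.67, and libraries of unlike number had -0.68 to 0.46. The 3-day values followed the letter B of the labels. Libraries alike in carrying or lacking it had r of 0.18 to 0.67. Libraries unlike in it had r of -0.68 to -0.09, and the same-numbered libraries 1, at -0.20, were among these. The numbers were not taken as pairs, and pairing at 3 days apart from the letter was not tested. With a replicate block, 122 entries were called at 3 weeks (116 higher, 6 lower, 102 shared), 9 against 11 days and 25 against 3 days.

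Depth cannot be had from FPKM, values near 0 are the least certain, and 3 pools a group limit the precision.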
